A study of Mus musculus with 30 samples.

Results

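Within the bone marrow progenitors of 6 mice, 525 cells carried transcripts of Fcnb, the gene of ficolin B, a pattern-recognition protein of developing neutrophils, while holding little RNA of the granule proteins made later. They were 2.15% of the 24396 cells kept, and are called Fcnb cells here. The cells came from droplet single-cell RNA-seq (10x Chromium), in which each captured RNA molecule is counted once by its unique molecular identifier (UMI). A cell was taken as an Fcnb cell when at most 10% of its UMIs were mitochondrial, Fcnb made up at least 10 of each 10000 UMIs, and Ngp, Camp and Ltf together made up fewer than 100 of each 10000. The cells were thus chosen by measured levels of these 4 genes, whose values are a description of the choice, with no test.

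The study deleted Mettl3, the catalytic subunit of the complex that writes N6-methyladenosine (m6A) into RNA, in the blood system of mice. Mettl3KO mice were Mx1-Cre; Mettl3 fl/fl and WT mice were Mettl3 fl/fl without Cre. Mice of both genotypes were sampled 3 weeks after pIpC, and their marrow was sorted for Lin-; c-Kit+ (LK) cells, the compartment of myeloid and erythroid progenitors together with stem cells, which gave 3 libraries of each genotype, each from a different mouse. The Mx1 promoter that drives Cre answers to interferon and is active in many tissues besides blood, and pIpC is an RNA duplex that induces interferon, so both genotypes had received an interferon stimulus. Which exons the deletion removes and how completely it occurred in each cell were not given in the sources used here.

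Neutrophils arise from granulocyte-monocyte progenitors through promyelocytes, myelocytes and metamyelocytes. Primary (azurophilic) granule proteins such as myeloperoxidase and the serine proteases are made first, in cells that still divide. C/EBP epsilon, the transcription factor encoded by Cebpe, is then required for the passage to secondary (specific) granules, whose cargo includes lactoferrin (Ltf), cathelicidin (Camp) and neutrophilic granule protein (Ngp). Ficolin B appears between these programmes, and the protein itself is stored in granules and binds sugars on microbes. PU.1 and C/EBP factors act on the promoters of many granule genes.

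Promoter windows are shown for Fcnb, which chose the cells, for Elane, Prtn3 and Mpo, the primary granule genes most abundant in them, and for 3 MHC class I genes whose levels are compared between genotypes below. Each window holds 250 bases before and 50 after the transcription start, from RefSeq on GRCm38.p6, read 5′ to 3′ on the strand of the gene. Capitals mark matches on either strand to 1 of 3 motifs, TTGCNNAA for C/EBP (held by 10.8% of 32851 such mouse windows), GAGGAAGT for PU.1 (3.20%) and GGGANTNCC for NF-kB (3.95%). A motif searched as well, GAAANNGAA for interferon response factors (8.56% of windows), matched in none of the 7 windows printed and once each in those of B2m, Ctsg and Chil3. The windows of the 3 MHC class I genes each hold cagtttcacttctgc, in which GAA comes before GAAA on the opposite strand. The motif searched cannot match that order, and whether these windows hold other sites of interferon response factors was not tested.
Fcnb (chr2:28084829-28085128, minus strand): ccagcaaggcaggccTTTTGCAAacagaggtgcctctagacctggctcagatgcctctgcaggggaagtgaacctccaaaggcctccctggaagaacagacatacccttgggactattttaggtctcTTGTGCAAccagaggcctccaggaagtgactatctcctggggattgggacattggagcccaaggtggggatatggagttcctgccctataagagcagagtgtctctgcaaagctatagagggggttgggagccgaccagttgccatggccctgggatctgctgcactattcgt
Elane (chr10:79886062-79886361, plus strand): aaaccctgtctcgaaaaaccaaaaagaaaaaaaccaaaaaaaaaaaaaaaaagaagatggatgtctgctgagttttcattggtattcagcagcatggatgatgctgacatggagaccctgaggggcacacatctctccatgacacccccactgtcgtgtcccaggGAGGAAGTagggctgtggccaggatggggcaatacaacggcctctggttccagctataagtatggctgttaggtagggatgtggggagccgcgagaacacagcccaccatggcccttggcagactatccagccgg
Prtn3 (chr10:79879417-79879716, plus strand): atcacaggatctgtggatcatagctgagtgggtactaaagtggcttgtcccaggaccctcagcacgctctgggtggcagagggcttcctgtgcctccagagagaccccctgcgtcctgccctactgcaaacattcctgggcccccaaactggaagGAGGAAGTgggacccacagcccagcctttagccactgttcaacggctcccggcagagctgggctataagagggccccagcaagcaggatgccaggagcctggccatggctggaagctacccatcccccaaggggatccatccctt
Mpo (chr11:87793534-87793833, plus strand): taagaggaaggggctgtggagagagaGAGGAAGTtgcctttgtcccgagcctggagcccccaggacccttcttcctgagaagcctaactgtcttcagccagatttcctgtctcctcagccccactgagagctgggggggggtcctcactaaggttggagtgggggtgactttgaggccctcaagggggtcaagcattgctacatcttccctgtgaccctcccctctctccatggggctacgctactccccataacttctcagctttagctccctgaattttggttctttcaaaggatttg
H2-K1 (chr17:34000298-34000597, minus strand): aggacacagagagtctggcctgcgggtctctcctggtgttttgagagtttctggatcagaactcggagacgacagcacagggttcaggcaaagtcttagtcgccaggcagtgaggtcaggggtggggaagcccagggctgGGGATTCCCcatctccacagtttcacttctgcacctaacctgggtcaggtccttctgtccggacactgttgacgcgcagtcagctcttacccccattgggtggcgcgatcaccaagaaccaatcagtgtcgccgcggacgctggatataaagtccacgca
H2-D1 (chr17:35262844-35263143, plus strand): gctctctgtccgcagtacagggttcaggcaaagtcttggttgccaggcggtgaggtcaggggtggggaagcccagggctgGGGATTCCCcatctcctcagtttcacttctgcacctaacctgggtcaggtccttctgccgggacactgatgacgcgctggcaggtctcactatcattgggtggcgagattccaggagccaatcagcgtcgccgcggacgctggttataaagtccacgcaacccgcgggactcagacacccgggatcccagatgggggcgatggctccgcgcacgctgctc
H2-Q7 (chr17:35438905-35439204, plus strand): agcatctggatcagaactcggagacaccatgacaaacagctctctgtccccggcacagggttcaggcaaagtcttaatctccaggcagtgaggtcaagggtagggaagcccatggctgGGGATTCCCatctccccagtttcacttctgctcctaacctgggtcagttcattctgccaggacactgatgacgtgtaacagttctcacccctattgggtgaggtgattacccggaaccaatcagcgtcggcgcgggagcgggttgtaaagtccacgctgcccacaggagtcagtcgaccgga

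The Fcnb window held the C/EBP letters at 2 places, starting 235 and 123 bases before the transcription start. The PU.1 letters began 85 bases before the start in Elane, 95 in Prtn3 and 224 in Mpo. The NF-kB letters matched at 1 place in each of the 3 heavy chain windows printed, beginning 110 bases before the start in H2-K1, 170 in H2-D1 and 132 in H2-Q7. H2-K1 had a 2nd window, not printed, from another transcription start, and the same match began 124 bases before that start. The windows of B2m, Psmb8 and Psmb10, of the same list, held no NF-kB match, those of Ctsg and Ms4a3 no PU.1 match, and those of Elane, Prtn3, Mpo and Ctsg no C/EBP match. These matches were searched after the levels were known and are a description of sequence. Of 18 genes looked up, 15 had a window, and Cebpe, Trem3 and Cd52 did not.

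The 6 libraries differed in ways that bear on the Fcnb cells. Mettl3KO mice gave 87, 6 and 84 Fcnb cells (replicates 1 to 3) and WT mice gave 121, 157 and 70. With 6 cells, Mettl3KO replicate 2 contributed 58920 UMIs, so that 1 UMI was worth 17.0 counts per 1000000 UMIs of the summed cells (CPM) there, against 0.69 to 2.28 CPM in the other 5 libraries. WT replicate 3 held 1131 cells with at least 100 UMIs of Ngp, Camp and Ltf per 10000 (late cells), where the other libraries held 27 to 121, and its other cells carried RNA of such cells: 92.9% of its Car1-expressing erythroid cells had an Ngp UMI, against 4.04 to 24.5% in the other libraries, at a median of 12218 UMIs per Car1 cell in WT replicate 3 and 16694 to 19338 elsewhere. Median depth per Fcnb cell was 6204 UMIs in WT replicate 3 and 7839 to 10111.5 UMIs in the others, with 1878 to 2498 genes detected. No cell barcode was shared between libraries among Fcnb cells, while 303 were shared by at least 2 libraries among all cells. The count of genes called is given with and without these 2 libraries.

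The given markers held up across all 6 libraries. Values are CPM of the summed cells of a class in a library, and a pair of comparison classes come from the same libraries: early cells, with at least 50 Elane UMIs per 10000 but Fcnb below 10 and late granule genes below 100 per 10000 (5149 cells), and the late cells (1457 cells). Cebpe stood at 577, 781 and 604 CPM in Fcnb cells of Mettl3KO mice and at 589, 683 and 581 in those of WT mice. Over the 6 libraries its mean was 636 ± 81.2 CPM in Fcnb cells, 189 ± 22.6 in early cells and 827 ± 122 in late cells (SD, n = 6 libraries), with no overlap between Fcnb and early cells.

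Trem3, which encodes an activating receptor of myeloid cells, was present at 611, 815 and 610 CPM in Fcnb cells of Mettl3KO mice and at 568, 540 and 626 in those of WT mice. Its level in early cells was 220 to 280 CPM, below every library of Fcnb cells. Clec4a2, a C-type lectin receptor gene, stood at 357, 289 and 326 CPM in Mettl3KO mice and at 429, 423 and 533 in WT mice, against 27.6 to 119 in early cells of either genotype. Fcnb itself, the chosen gene, averaged 1885 ± 172 CPM in Fcnb cells and 88.8 ± 21.4 in early cells (SD, n = 6 libraries). Late cells also held these 3 genes, at 1988 ± 732 CPM of Fcnb, 524 ± 42.0 of Trem3 and 454 ± 48.5 of Clec4a2 (SD, n = 6 libraries). In Car1 cells, which should lack these genes, 1.01 to 7.46% had an Fcnb UMI, 0 to 5.68% a Cebpe UMI, 1.49 to 4.09% a Trem3 UMI and 0 to 4.26% a Clec4a2 UMI.

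The most abundant transcripts of Fcnb cells were of primary granules and of the cytosolic S100 proteins. Elane, which encodes neutrophil elastase, stood at 28530, 27870 and 27020 CPM in Mettl3KO mice and at 30710, 28870 and 30710 in WT mice. Its mean of 28950 ± 1504 CPM in Fcnb cells compared with 15020 ± 1825 in early cells and 8009 ± 5878 in late cells (SD, n = 6 libraries). The 15 genes of highest level, leaving out mitochondrial, ribosomal protein and rule genes, were S100a8, Elane, S100a9, Prtn3, Tmsb4x, Mpo, Malat1, Ctsg, Ptma, Plac8, Ppia, Actb, Ftl1, Ms4a3 and H2afz.

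The other primary granule genes were also high. Prtn3 (proteinase 3) ranged from 9912 to 10690 CPM over the 6 libraries of Fcnb cells and from 6550 to 7309 in early cells, and Mpo (myeloperoxidase) from 7890 to 11190 and from 6489 to 9161. For Ctsg (cathepsin G) the ranges were 5874 to 7196 in Fcnb cells and 4840 to 6365 in early cells, so the classes overlapped for Mpo and Ctsg and did not for Prtn3. Summed over 17 primary granule genes, the level was 69600 ± 2952 CPM in Fcnb cells, 43110 ± 2857 in early cells and 32060 ± 8121 in late cells (SD, n = 6 libraries). Gfi1, a repressor needed for granulocyte over monocyte fate, stood at 66.9 to 94.9 CPM in Fcnb cells and 35.0 to 45.3 in early cells.

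S100a8 and S100a9, the subunits of calprotectin, marked the step from early to Fcnb cells more than the primary granule genes did. S100a8 stood at 28610, 46280 and 23420 CPM in Fcnb cells of Mettl3KO mice and at 25930, 31050 and 39990 in those of WT mice, with the 2 highest values in Mettl3KO replicate 2 and WT replicate 3. Over the 6 libraries the range was 23420 to 46280 in Fcnb cells, 2157 to 3911 in early cells and 98690 to 199300 in late cells. S100a9 averaged 10890 ± 3973 CPM in Fcnb cells and 468 ± 213 in early cells (SD, n = 6 libraries), 23.3 times as much.

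Transcripts of secondary and tertiary granule proteins lay between early and late cells in their summed level, at 4482 to 6959 CPM over 21 genes in Fcnb cells, 1569 to 2334 in early cells and 62750 to 167200 in late cells. The list includes the rule genes. Pglyrp1, a peptidoglycan recognition protein, stood at 1226 to 1935 CPM in Fcnb cells, 327 to 440 in early cells and 2572 to 4141 in late cells, and Hp, haptoglobin, at 1216 to 1459, 468 to 589 and 1529 to 2034. Other members were closer to early cells. Lcn2 (neutrophil gelatinase-associated lipocalin) stood at 26.5 to 84.9 CPM in Fcnb cells, 19.5 to 63.0 in early cells and 1984 to 10190 in late cells. Lyz2 (lysozyme) ranged from 259 to 471 in Fcnb cells and from 192 to 358 in early cells, against 5408 to 17440 in late cells. Chil3, which encodes the chitinase-like protein Ym1, was intermediate, at 101 to 271 CPM in Fcnb cells, 4.23 to 43.2 in early cells and 2629 to 7224 in late cells. Mmp8 and Mmp9, the collagenase and gelatinase genes of later granules, had no UMI in the 525 Fcnb cells. They were also low in late cells, at 0 to 50.2 and 6.04 to 109 CPM, with the highest value of each in Mettl3KO replicate 2.

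Several markers of the monocyte branch were lower in Fcnb cells than in early cells, while Vcam1 was higher. Irf8, the transcription factor of the monocyte and dendritic branch, stood at 32.8, 0 and 8.88 CPM in Fcnb cells of Mettl3KO mice and at 17.0, 1.38 and 6.83 in those of WT mice, against 119 to 276 in early cells. Csf1r, the receptor of macrophage colony-stimulating factor, stood at 0 to 1.48 CPM in Fcnb cells and 7.35 to 18.2 in early cells, Ly86 at 0 to 8.49 and 47.9 to 82.3, and F13a1 at 15.8 to 33.9 and 87.3 to 127. Of 20 monocyte and macrophage markers, 4 were at 0 in all Fcnb cells, and the summed level of the list was 167 to 272 CPM in Fcnb cells and 578 to 886 in early cells. Vcam1, a cell adhesion molecule on this list, went the other way, at 107 to 187 CPM in Fcnb cells and 10.0 to 32.7 in early cells, and made up most of the sum in Fcnb cells. Cd34, a surface marker of earlier progenitors, stood at 0 to 7.87 CPM in Fcnb cells and 49.4 to 81.4 in early cells, while Kit, the receptor by which the cells were sorted, overlapped between the classes, at 13.7 to 33.9 and 26.3 to 37.7.

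Markers of other lineages were counted in Fcnb cells by their summed level. Of 10 eosinophil markers, 5 (Epx, Ear2, Ear6, Ear10 and Ccr3) were at 0, and the list summed to 7.40 to 33.9 CPM in Mettl3KO mice and 4.55 to 27.6 in WT mice. B cell markers summed to 50.9 to 161 CPM in Mettl3KO mice and 87.0 to 121 in WT mice, and basophil and mast cell markers to 219 to 373 and 262 to 319. The T and NK cell list summed to 2761 to 3072 and 2594 to 2876 CPM, of which Nkg7, a granule gene that myeloid progenitors also express, made up 2945 ± 164 and 2725 ± 142 CPM (SD, n = 3 each). The T and NK cell genes Cd3e, Cd3g, Cd4, Cd8a, Klrd1, Ncr1 and Gzma were at 0 in all 6 libraries.

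Genes with a high ratio to all other LK cells included several of lipid and surface function. After Fcnb itself, the largest ratios of mean level were 19.9 for Clec4b2, a lectin receptor gene, 14.7 for Mogat2, a monoacylglycerol acyltransferase, 14.3 for Vcam1, a cell adhesion molecule, and 11.4 for Mgl2, a galactose-binding lectin. Dgat2, which makes triglycerides, followed Clec4a2 (9.08) at 8.70, and G0s2, an inhibitor of their breakdown, stood at 7.30. The last 3 genes had no higher mean than in late cells. Dgat2 averaged 56.1 ± 31.2 CPM in Fcnb cells and 60.6 ± 28.3 in late cells, G0s2 109 ± 13.5 and 120.3 ± 4.24 (SD, n = 6 libraries each), and the mean of Clec4a2 was 0.864 times that of late cells. Mogat2 averaged 100 ± 33.8 CPM in Fcnb cells, 14.1 ± 2.48 in early cells and 88.5 ± 27.9 in late cells, and Vcam1 138 ± 32.1, 23.4 ± 7.60 and 61.2 ± 34.0 (SD, n = 6 libraries each). These comparisons between classes are descriptions, since the classes were cut by genes of the same table.

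**Figure D1:**
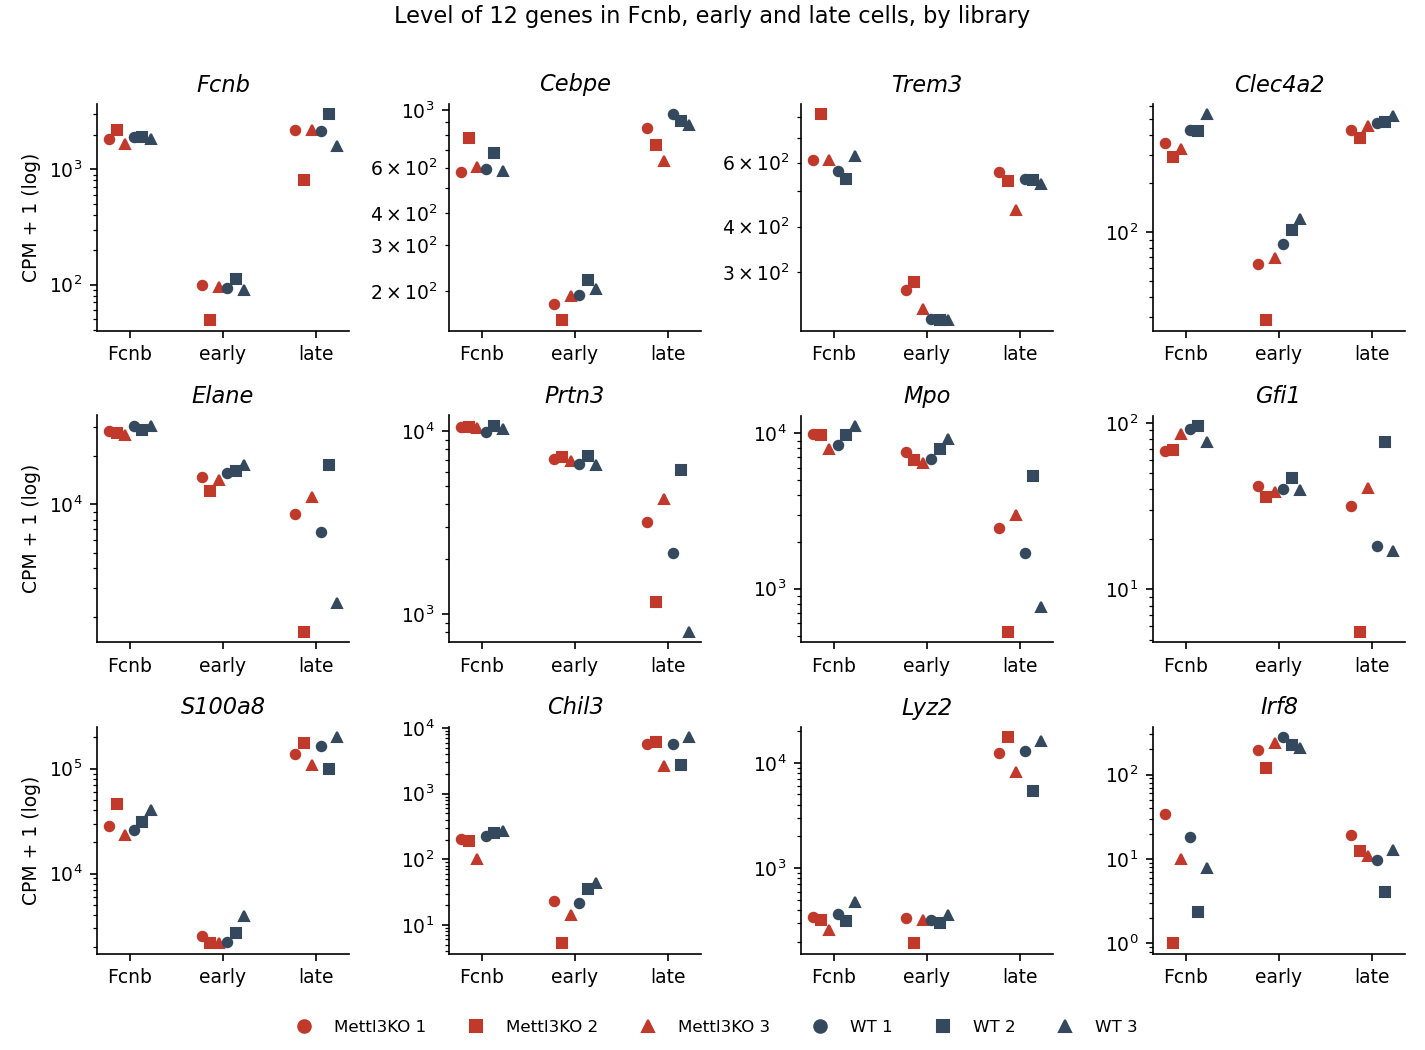
Level of 12 genes (CPM + 1, logarithmic axes) in Fcnb, early and late cells, 1 point for each of the 6 libraries. Elane was higher in Fcnb than in early cells in all 6 libraries, S100a8 lay between early and late cells, and Irf8 was lower in Fcnb cells than in early cells.

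Growth genes had a lower summed level in Fcnb cells than in early cells, while the sums of cell cycle genes overlapped between these classes. The summed level of 34 MYC-driven growth and nucleolar genes was 6411 ± 533 CPM in Fcnb cells, 10620 ± 1344 in early cells and 3528 ± 993 in late cells (SD, n = 6 libraries). G1/S and DNA replication genes (26 genes) summed to 3163 to 4209 CPM in Fcnb cells and 2892 to 3461 in early cells, ranges that overlapped. G2/M and mitosis genes (26 genes) summed to 1239 to 1756 CPM in Fcnb cells and 1714 to 1980 in early cells, which overlapped as well. The highest G1/S sum and the lowest G2/M sum of Fcnb cells came from the 6 cells of Mettl3KO replicate 2. NADPH oxidase genes, whose product makes superoxide, summed to 2927 to 3203 CPM over 7 members in Fcnb cells and 1596 to 1660 in early cells.

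The lower limit of Fcnb lay within a continuous range. The 101 Fcnb cells at 10 to 12 Fcnb UMIs per 10000 held 27642 CPM of Elane, 553 of Cebpe and 536 of Trem3, and the 134 cells just below, at 8 to 10, held 27437, 520 and 515. S100a8 stood at 22738 CPM in the 101 cells inside and 18614 in the 134 outside. At the upper limit of Ngp, Camp and Ltf there were 6 cells at 80 to 100 per 10000 and 14 at 100 to 120.

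Within the Fcnb cells, those richer in Ngp, Camp and Ltf also held more RNA of other late genes. Cells were split at 5 and 20 UMIs of these 3 genes per 10000, in the 5 libraries with enough cells; Mettl3KO replicate 2 had 3, 1 and 2 cells in the 3 bins and was left out. S100a8 stood at 40140 to 67720 CPM in the highest bin and 16050 to 30940 in the lowest, and the ratio was 1.88 to 2.78 in the 5 libraries. S100a9 was 3.31 to 4.97 times and Chil3 2.30 to 7.17 times as high in the highest bin, and Lyz2 1.62 to 3.32 times.

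Cybb, the catalytic subunit of the NADPH oxidase, was 1.42 to 3.77 times as high in the highest as in the lowest bin, and Pglyrp1, a granule protein that binds peptidoglycan, 1.44 to 1.70 times. Cebpe was higher in the highest bin in each of the 5 libraries, by 1.08 to 1.52 times, and Clec4a2 by 1.06 to 1.70 times. Ctsg was lower in the highest bin in each library, at 3960 to 5494 CPM against 6179 to 8095 in the lowest bin, a ratio of 0.588 to 0.755. Elane (0.862 to 0.947), Prtn3 (0.846 to 0.950) and Mpo (0.862 to 0.986) were lower by less.

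Npm1, a nucleolar growth gene, was lower in the highest bin in the 5 libraries, at a ratio of 0.638 to 0.912, and so was Myb, a transcription factor of progenitors, at 0.599 to 0.881. The sum of the G1/S genes was higher in the highest bin in the 5 libraries, by 1.07 to 1.39 times. The bins were cut by rule genes of the same cells, so no test was made, and in WT replicate 3, where free late granule RNA was present, 18.6% of Fcnb cells fell in the lowest bin against 58.0 to 65.3% in the other 4 libraries. The share of the highest bin was 16.1 and 17.9% in Mettl3KO replicates 1 and 3 and 14.0 to 20.4% in the WT replicates.

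**Figure D2:**
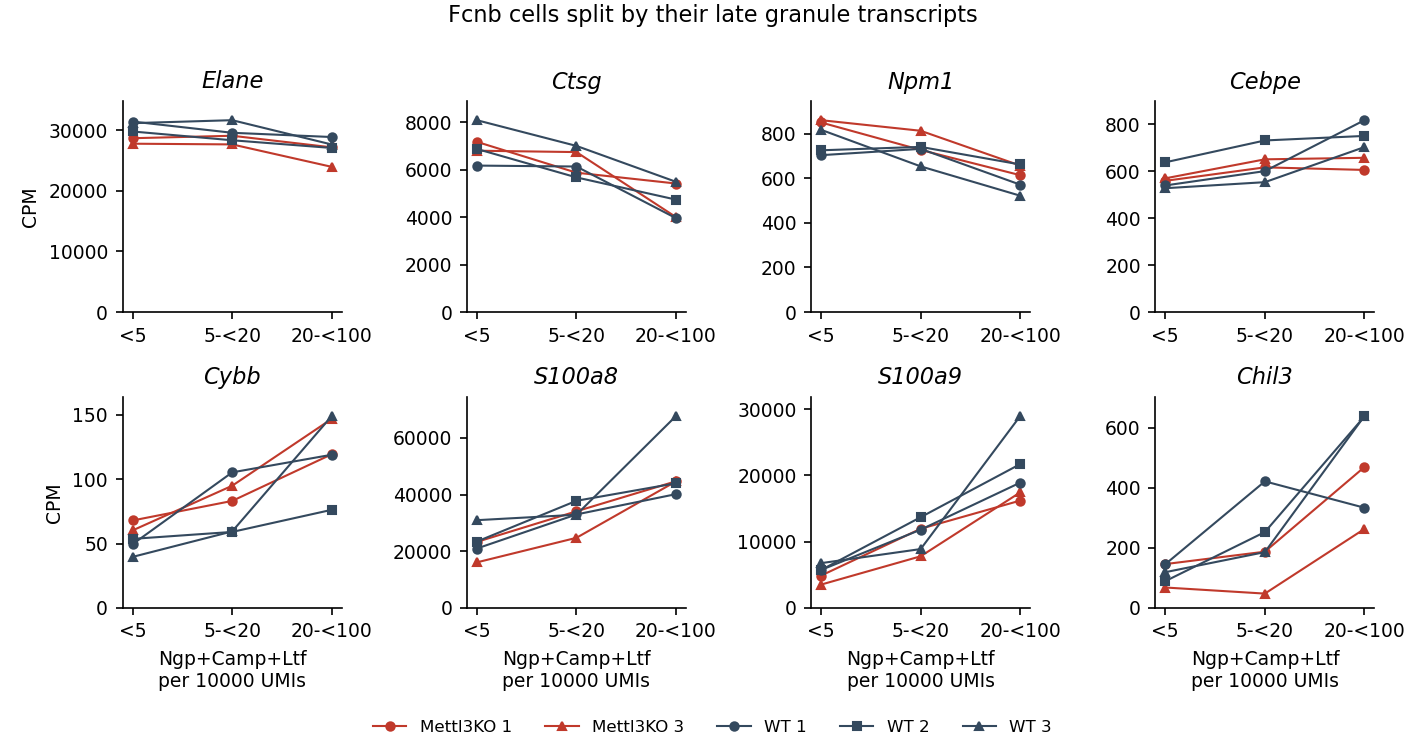
Level of 8 genes (CPM) in Fcnb cells split by their summed Ngp, Camp and Ltf UMIs per 10000, 1 line for each of the 5 libraries with enough cells. S100a8, S100a9 and Chil3 were higher in the highest than in the lowest bin in every one of these 5 libraries, and Ctsg was lower.

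Fcnb cells were a smaller share of LK cells in Mettl3KO mice on average, a difference within the spread between mice. They were 2.05% (95% exact interval 1.65 to 2.53), 0.204% (0.075 to 0.443) and 1.73% (1.38 to 2.13) of LK cells in Mettl3KO replicates 1 to 3, and 2.70% (2.25 to 3.22), 4.47% (3.81 to 5.20) and 1.61% (1.26 to 2.03) in WT replicates 1 to 3. WT replicate 3 lay below 2 of the 3 Mettl3KO mice, so the groups overlapped. The mean share was 1.33 ± 0.987% in Mettl3KO mice and 2.93 ± 1.44% in WT mice (SD, n = 3 each), a difference of -1.60 percentage points (two-sided exact permutation p = 0.3, where the smallest p that 3 against 3 mice allow is 0.1). Without Mettl3KO replicate 2 the difference was -1.04 points (exact permutation p = 0.6), without WT replicate 3 it was -2.26 points (exact permutation p = 0.2), without WT replicate 2 it was -0.83 points (exact permutation p = 0.6), and without both Mettl3KO replicate 2 and WT replicate 3 it was -1.69 points (exact permutation p = 0.333). Without WT replicate 3, alone or with Mettl3KO replicate 2, the genotypes did not overlap. The exact permutation p of 0.2 and 0.333 are then the smallest that the mice left allow.

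The early cells showed a difference of the same sign. They made up 14.9 ± 4.08% of LK cells in Mettl3KO mice and 26.7 ± 7.67% in WT mice (SD, n = 3 each, two-sided exact permutation p = 0.2). Set against Fcnb, early and late cells together, Fcnb cells were 10.1, 1.63 and 8.49% in Mettl3KO mice and 7.28, 12.3 and 3.54% in WT mice, a difference of -0.97 points (two-sided exact permutation p = 0.8). A share depends on which other cells a mouse has in the sort, and WT replicate 3 with its 1131 late cells had the lowest WT value. With 3 mice of each genotype neither share could reach an exact p under 0.05.

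**Figure D3:**
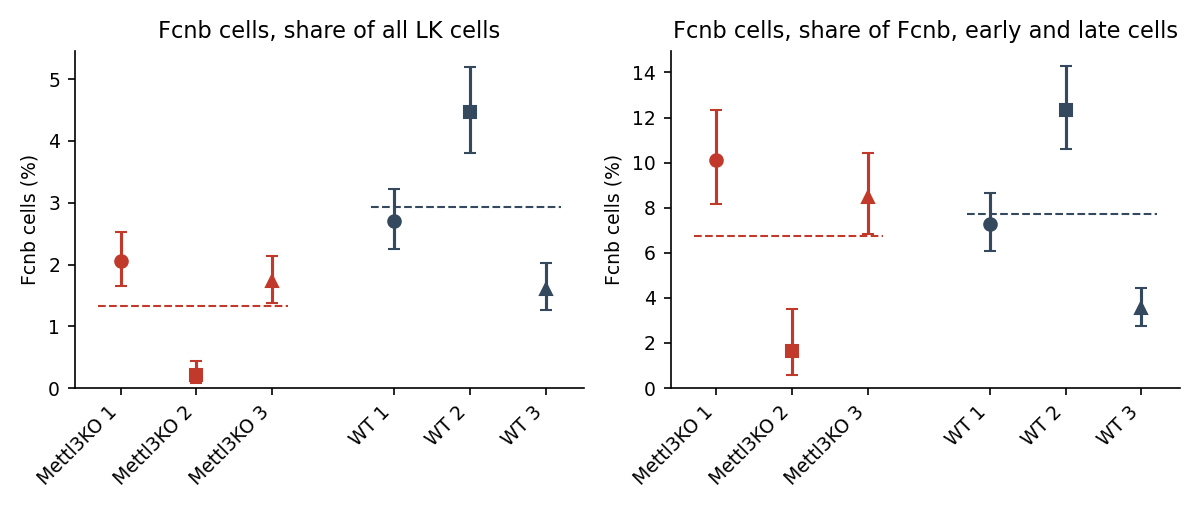
Fcnb cells as a percent of all LK cells (one panel) and of Fcnb, early and late cells together (other panel), 1 point for each mouse with its exact 95% binomial interval and the mean of each genotype as a dashed line, Mettl3KO left of WT. Mettl3KO replicate 2 had the lowest share of LK cells, 0.204%, and WT replicate 2 the highest, 4.47%.

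To compare genotypes within the Fcnb cells, UMIs were summed per mouse and tested across all genes. Mettl3 itself was at the limit of detection: 3, 0 and 5 UMIs in Fcnb cells of Mettl3KO mice and 9, 13 and 4 in those of WT mice, or 3.93, 0 and 7.40 CPM against 9.55, 8.94 and 9.11. The 0 of Mettl3KO replicate 2 allows up to 50.9 CPM, and Mettl3 was below the filter on low counts, so it was not tested in Fcnb cells. In early cells it stood at 8.58, 8.69 and 8.78 CPM in Mettl3KO mice and 12.4, 15.2 and 13.1 in WT mice (log2 fold change -0.64, edgeR adjusted p = 0.0424). Neither the exons deleted nor the transcript end that was counted is given in the sources used here, so these values do not measure the deletion.

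Of 5060 genes tested, 12 differed between genotypes at a Benjamini-Hochberg adjusted p under 0.05 in edgeR's quasi-likelihood test (0.237%), 8 higher (0.158%) and 4 lower (0.0791%) in Mettl3KO mice, and 302 had an unadjusted p under 0.05. DESeq2 called 0 genes on the same sums, with 38 at an unadjusted p under 0.05. With the lower limit of Fcnb at 5 per 10000, edgeR called 8 genes, 4 of them among these 12, and H2-K1, Psmb8, Cd52, Tmsb10, Lgals1, Tfpi, Car2 and Actb were not called. The count was 17 without Mettl3KO replicate 2, 8 without WT replicate 3 and 15 without both, and it was 1 without Mettl3KO replicate 1, 6 without Mettl3KO replicate 3, 9 without WT replicate 1 and 5 without WT replicate 2. The median log2 fold change of all 5060 genes was -0.002. The values of the genotypes did not overlap for 318 genes in the higher direction (6.28%) and 269 in the lower (5.32%), 11.6% in all.

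Genes of MHC class I antigen presentation were among those that rose in Fcnb cells of Mettl3KO mice. H2-K1 (chromosome 17, 33996017 to 34000347, minus strand), a classical class I heavy chain, stood at 426, 339 and 386 CPM in Mettl3KO mice and at 253, 293 and 251 in WT mice. Every Mettl3KO library lay above every WT library, and the log2 fold change was 0.56 (SE 0.11, edgeR adjusted p = 0.00978). Psmb8, the immunoproteasome subunit that replaces a catalytic subunit of the constitutive proteasome, stood at 424, 339 and 449 CPM in Mettl3KO mice and at 278, 303 and 296 in WT mice, again without overlap (log2 fold change 0.53, SE 0.11, edgeR adjusted p = 0.0130).

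H2-Q7, a non-classical class I heavy chain, stood at 60.3, 17.0 and 71.1 CPM in Mettl3KO mice and at 25.5, 27.5 and 11.4 in WT mice (log2 fold change 1.37, SE 0.26, edgeR adjusted p = 0.00978). The value of Mettl3KO replicate 2 was a single UMI and lay among the WT values. Over the 6 fits that each left out 1 library, the log2 fold change was 0.49 to 0.65 for H2-K1, 0.43 to 0.57 for Psmb8 and 1.17 to 1.58 for H2-Q7. All 3 lost their call without Mettl3KO replicate 1 or 3, H2-K1 and Psmb8 also without WT replicate 1 and Psmb8 also without WT replicate 2. The class I heavy chains are close copies of each other, and how reads that map to several of them were counted was not given in the sources used here, so single members are uncertain.

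As a group, 10 of the 11 tested genes of the 14-member MHC class I and immunoproteasome list had a positive log2 fold change, with a median of 0.45 beside -0.002 for all genes tested, and 3 of the 11 were called higher, where 0.158% of all genes tested were. H2-D1 had 1151 ± 87.8 CPM in Mettl3KO mice and 864 ± 95.8 in WT mice (SD, n = 3 each) with a log2 fold change of 0.43 (edgeR adjusted p = 0.0639). B2m, the light chain of class I molecules, had 1917 ± 74.8 and 1500 ± 202 CPM (log2 fold change 0.32, edgeR adjusted p = 0.518), and neither gene overlapped between genotypes. Tapbp, the tapasin gene, was the 1 negative member, at -0.05. The summed level of the 14 genes was 4572, 4175 and 4420 CPM in Mettl3KO mice and 2942, 3492 and 3593 in WT mice.

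The same list in early cells had a median of 0.26, with 0 of 14 genes called in edgeR's test, where 0.957% of all 10444 genes tested were. At an unadjusted p under 0.05 there were 8 of the 14. No share of all genes at that unadjusted p stands beside this count, so it is not read as a result. In a test of the difference of the effect between Fcnb and early cells, 0 of 13 genes of the list were called by edgeR, and 0 had an unadjusted p under 0.05. Interferon-stimulated genes, the wider set induced by interferon, had 8 of 38 measured members abundant enough to test in Fcnb cells. None was called by edgeR, and 3 had an unadjusted p under 0.05, as had 302 of all 5060 genes tested. Of the 8, 7 were positive and the median was 0.37. Ly6e, a surface protein induced by interferon, had 293 ± 57.5 CPM in Mettl3KO mice and 244 ± 32.4 in WT mice (SD, n = 3 each, log2 fold change 0.32, edgeR adjusted p = 0.687), and Ifitm3, an antiviral membrane protein, 33.3 ± 15.3 and 20.3 ± 6.39 CPM (1.03, edgeR adjusted p = 0.338). In DESeq2, 0 of the MHC class I and immunoproteasome genes were called in Fcnb cells and 5 had an unadjusted p under 0.05. Of 31 interferon-stimulated genes tested in early cells, 2 were called higher by edgeR, where 0.584% of all genes tested there were.

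**Figure D4:**
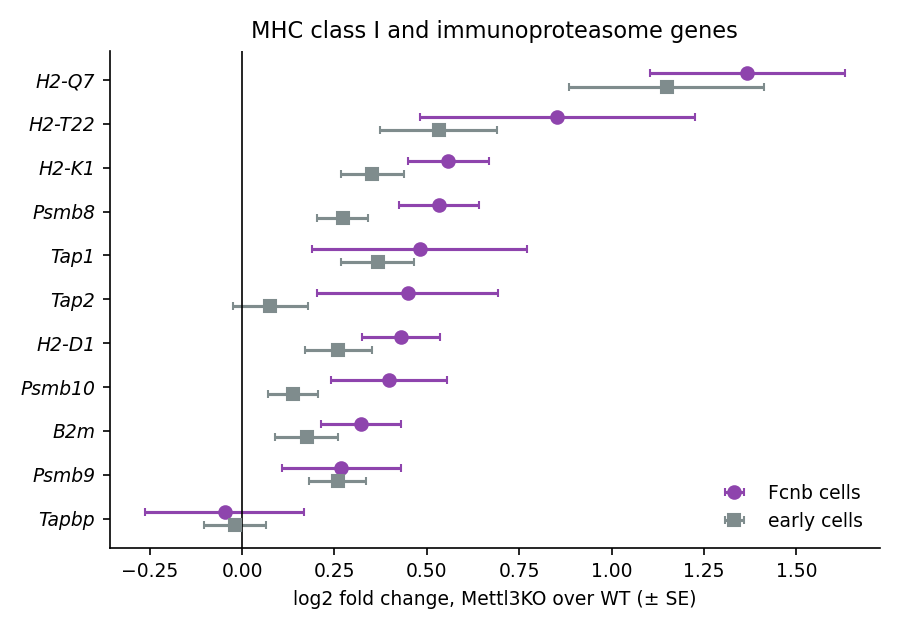
Log2 fold change, Mettl3KO over WT, with its standard error for the 11 MHC class I and immunoproteasome genes tested in Fcnb cells (circles) and the same genes in early cells (squares). In Fcnb cells 10 of the 11 values lie above 0, with H2-Q7 farthest out at 1.37.

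Among growth genes, Tfrc, the transferrin receptor that brings iron into dividing cells, stood at 65.6, 50.9 and 59.2 CPM in Fcnb cells of Mettl3KO mice and at 33.9, 30.3 and 15.9 in those of WT mice. The value of Mettl3KO replicate 2 was 3 UMIs. The groups did not overlap (log2 fold change 1.07, SE 0.24, edgeR adjusted p = 0.0320), and the log2 fold change in early cells was 1.15 (edgeR adjusted p = 0.00105). Its log2 fold change was 0.93 to 1.19 when 1 library was left out, and the call was kept only without Mettl3KO replicate 2. Of 30 tested MYC-driven growth and nucleolar genes, Tfrc was the 1 called, 25 were positive, and the median was 0.20 in Fcnb cells and 0.22 in early cells. Hspe1, a mitochondrial chaperonin gene, had 362 ± 45.3 CPM in Mettl3KO mice and 289 ± 13.8 in WT mice (SD, n = 3 each, edgeR adjusted p = 0.374).

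A surface protein, an actin-binding protein and a lectin also rose. Cd52, a small glycosylphosphatidylinositol-anchored surface protein of leukocytes, stood at 629, 475 and 412 CPM in Mettl3KO mice and at 363, 358 and 358 in WT mice (log2 fold change 0.51, SE 0.11, edgeR adjusted p = 0.0320). Tmsb10, an actin-sequestering thymosin, stood at 160, 153 and 160 CPM in Mettl3KO mice and at 111, 85.3 and 107 in WT mice (0.68, SE 0.15, edgeR adjusted p = 0.0320). Lgals1, galectin-1, stood at 341, 187 and 351 CPM in Mettl3KO mice and at 293, 142 and 153 in WT mice (0.74, SE 0.17, edgeR adjusted p = 0.0320). With all cells kept, Cd52 and Tmsb10 did not overlap between genotypes and Lgals1 did.

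Leaving out 1 library moved these 3 genes between calls. The log2 fold change was 0.22 to 0.68 for Cd52, whose call was lost without Mettl3KO replicate 1 or without any of the 3 WT replicates. It was 0.52 to 0.77 for Tmsb10, lost without Mettl3KO replicate 1 or 3 or WT replicate 2, and 0.47 to 1.16 for Lgals1, lost without Mettl3KO replicate 1 or 3 or WT replicate 2 or 3. A single Mettl3KO replicate 1 cell described next held 43 of the 122 Tmsb10 UMIs of its library, and without it and 1 WT replicate 2 cell the log2 fold change of Tmsb10 was 0.41 (edgeR adjusted p = 0.71) and that of Cd52 0.46 (edgeR adjusted p = 0.0508).

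In 2 of the called genes 1 cell held most of the UMIs of a library. H2-Ab1, an MHC class II beta chain of antigen-presenting cells, stood at 165, 50.9 and 17.8 CPM in Mettl3KO mice and at 13.8, 17.2 and 11.4 in WT mice (log2 fold change 2.57, SE 0.40, edgeR adjusted p = 0.000568). In Mettl3KO replicate 1, 1 cell of 14684 UMIs held 117 of the 126 H2-Ab1 UMIs of its library, together with 202 UMIs of Cd74, 71 of H2-Aa and 50 of H2-Eb1, all of the class II pathway, beside 314 of Elane. Without Mettl3KO replicate 1 the log2 fold change was 0.45 (edgeR adjusted p = 0.984), and without this cell and the WT replicate 2 cell below it was 0.07 (edgeR adjusted p = 1.0). The summed level of 12 dendritic cell markers, which include these genes, was 678, 102 and 101 CPM in Mettl3KO mice and 85.9, 67.4 and 77.4 in WT mice.

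Car2, the carbonic anhydrase of red cell precursors, stood at 13.1, 50.9 and 20.7 CPM in Mettl3KO mice and at 48.8, 118 and 41.0 in WT mice (log2 fold change -2.12, SE 0.35, edgeR adjusted p = 0.00102). In WT replicate 2, 1 cell of 26299 UMIs held 108 of the 172 Car2 UMIs of its library with 82 of the globin gene Hba-a1 and 234 of Elane, and Scrublet called this cell a doublet. Without both cells the log2 fold change was -1.33 and the call was kept (edgeR adjusted p = 0.0357), and without WT replicate 2 it was -1.34 (edgeR adjusted p = 0.210), while without Mettl3KO replicate 1 the call was also lost. The summed level of 19 erythroid markers was 110, 204 and 120 CPM in Mettl3KO mice and 211, 459 and 153 in WT mice. In early cells Car2 had a log2 fold change of -0.86 (edgeR adjusted p = 0.0295). The Car1 cells, which held 3935 to 5036 CPM of Car2, numbered 67, 94 and 99 in Mettl3KO mice and 409, 488 and 563 in WT mice. The part of free RNA from such cells in the Car2 result was not tested.

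The other 3 called genes fell. Tfpi, an inhibitor of tissue factor, stood at 10.5, 0 and 5.92 CPM in Mettl3KO mice and at 24.4, 27.5 and 34.2 in WT mice (log2 fold change -1.78, SE 0.40, edgeR adjusted p = 0.0320), and at -0.89 in early cells (edgeR adjusted p = 0.00510). Chil3, the Ym1 gene of maturing neutrophils, stood at 203, 187 and 101 CPM in Mettl3KO mice and at 226, 247 and 271 in WT mice (-0.67, SE 0.15, edgeR adjusted p = 0.0320). The values of neither gene overlapped between genotypes. Tfpi rested on 8, 0 and 4 UMIs in Mettl3KO mice and 23, 40 and 15 in WT mice. Its 0 in Mettl3KO replicate 2 allows up to 50.9 CPM, above every WT value, so a separation is not shown for that library. Chil3 had 11 UMIs there, 9 of them in 1 cell. Actb, cytoplasmic beta-actin, stood at 3363, 2155 and 2462 CPM in Mettl3KO mice and at 4368, 2768 and 6051 in WT mice, with overlap (-0.70, SE 0.16, edgeR adjusted p = 0.0320).

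WT replicate 3 had the highest value of both Chil3 and Actb among the 6 libraries. Without it the log2 fold change of Actb was -0.41 (edgeR adjusted p = 0.810), and over the 6 fits that left out 1 library it was -0.96 to -0.41, with a call in the fit without WT replicate 2. That of Chil3 was -1.16 to -0.34 with a call without Mettl3KO replicate 1 or 2, and it was -0.14 (edgeR adjusted p = 0.982) when the upper limit of the late granule genes was raised to 200 per 10000. That of Tfpi was -2.31 to -1.55 with a call without Mettl3KO replicate 2. Late cells held 4607 to 7949 CPM of Actb and 2629 to 7224 of Chil3. In the Car1 cells of WT replicate 3 Chil3 stood at 44.6 CPM, against 0.56 to 8.55 in those of the other libraries. Actb stood at 2417 CPM in the same Car1 cells, within the 1736 to 2563 of the other libraries. The part of free RNA in the 2 results was not tested.

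**Figure D5:**
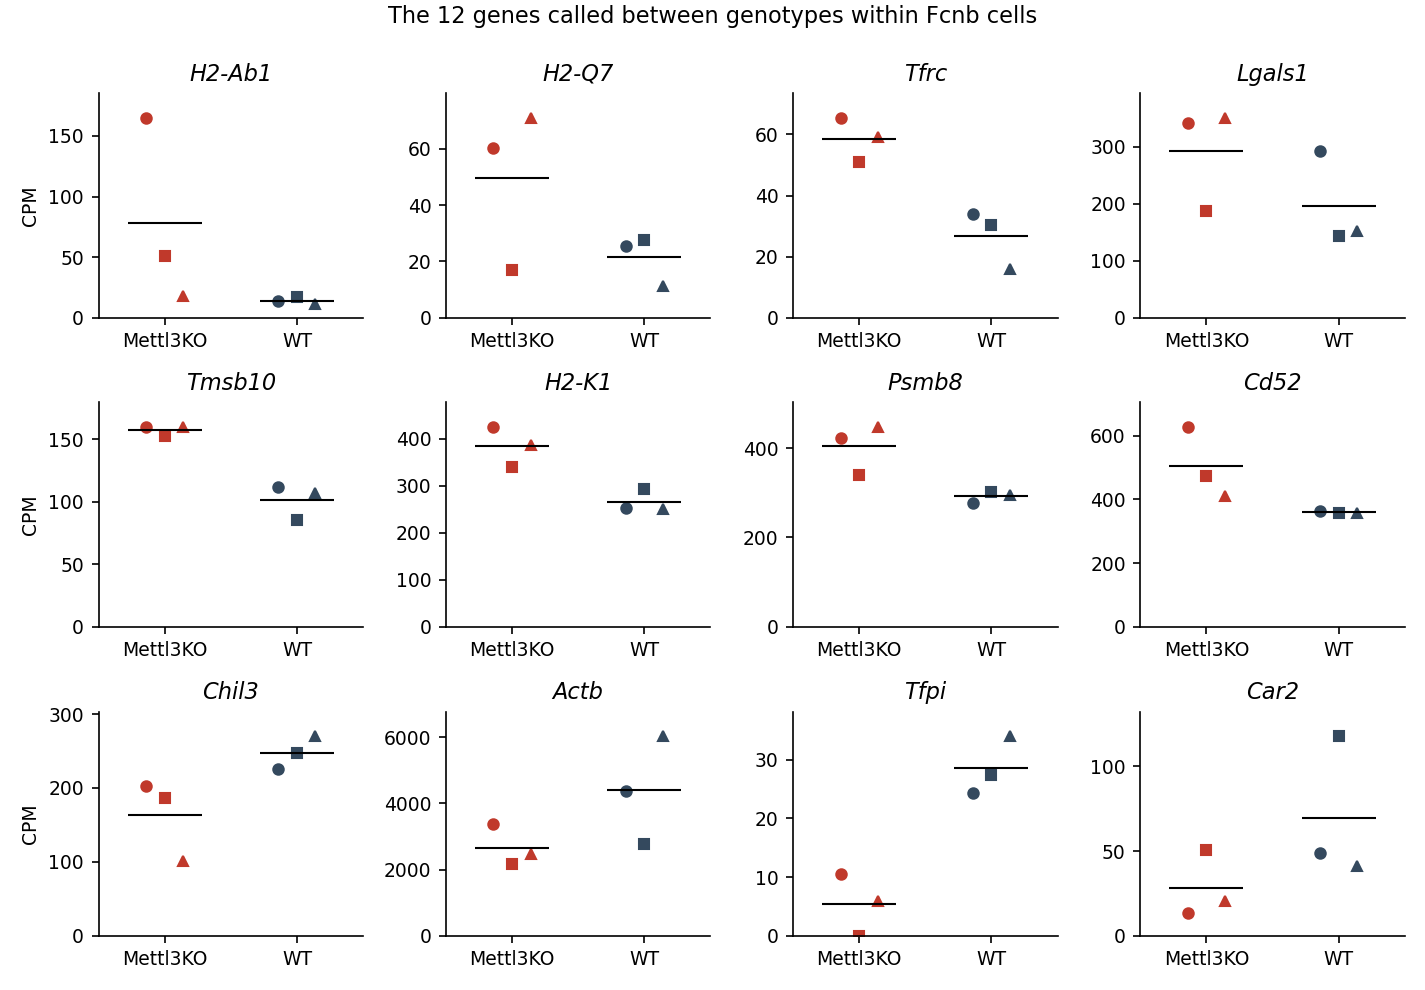
Level (CPM) of the 12 genes called between genotypes within Fcnb cells, 1 point for each mouse, Mettl3KO left of WT, with the mean of each genotype. With all cells kept, H2-K1, Psmb8, Tfrc, Tmsb10, Cd52, Tfpi and Chil3 did not overlap between genotypes. The 0 of Tfpi in Mettl3KO replicate 2 came from 6 cells. The single high points of H2-Ab1 in Mettl3KO and of Car2 in WT came from the libraries with 1 outlying cell each. The outlying cell of Mettl3KO replicate 1 also held 43 of the 122 Tmsb10 UMIs of its library, and the separation of Tmsb10 depended on it.

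The genes that define the granulocyte programme were not called. Of 16 tested primary granule genes, none was called by edgeR (2 at an unadjusted p under 0.05), and the median log2 fold change was -0.03. Elane averaged 27800 ± 756 CPM in Mettl3KO mice and 30100 ± 1062 in WT mice (SD, n = 3 each), a log2 fold change of -0.15 (SE 0.13, edgeR adjusted p = 0.939), and the 3 WT values lay above the 3 Mettl3KO values. Prtn3 averaged 10470 ± 67.3 and 10310 ± 388 CPM (-0.01, edgeR adjusted p = 1.0), and Mpo 9206 ± 1143 and 9773 ± 1402 (-0.13, edgeR adjusted p = 0.960).

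Of 12 tested secondary and tertiary granule genes, Chil3 was the 1 called and the median was 0.02. Lrg1, a leucine-rich glycoprotein of neutrophil granules, averaged 200 ± 121 CPM in Mettl3KO mice and 90.3 ± 16.5 in WT mice (SD, n = 3 each), with a log2 fold change of 0.71 (SE 0.18, edgeR adjusted p = 0.0924) in Fcnb cells and 0.96 (edgeR adjusted p = 0.00244) in early cells. Anxa1, annexin A1, averaged 668 ± 160 and 448 ± 26.8 CPM (0.40, edgeR adjusted p = 0.131). S100a8 differed by -0.04 and S100a9 by -0.08, with the late and S100 list at a median of -0.08 over 7 tested genes and none called by edgeR. Without Mettl3KO replicate 2, S100a8 differed by -0.33 (edgeR adjusted p = 0.592) and S100a9 by -0.54 (edgeR adjusted p = 0.0243), and without WT replicate 3 as well S100a8 differed by -0.15 (edgeR adjusted p = 0.945). S100a9 was called in 1 of 20 alternatives, the fit without Mettl3KO replicate 2, and not in the fit without both libraries.

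Cebpe itself averaged 654 ± 111 CPM in Mettl3KO mice and 617 ± 56.7 in WT mice (SD, n = 3 each), a log2 fold change of -0.05 (SE 0.11, edgeR adjusted p = 0.991), and the highest Mettl3KO value, 781 CPM, came from the 6 cells of replicate 2. Without Mettl3KO replicate 2 the log2 fold change of Cebpe was -0.09 (edgeR adjusted p = 0.950), and without WT replicate 3 as well it was -0.13 (edgeR adjusted p = 0.915). None of the 6 tested C/EBP genes and partners was called by edgeR (0 at an unadjusted p under 0.05). Trem3 differed by 0.12 (edgeR adjusted p = 0.939). Clec4a2, at 324 ± 34.1 CPM in Mettl3KO mice and 461 ± 62.0 in WT mice, did not overlap between genotypes but missed the threshold (log2 fold change -0.44, SE 0.11, edgeR adjusted p = 0.0924). Spi1, which encodes PU.1, averaged 409 ± 32.1 and 405 ± 26.7 CPM (0.03, edgeR adjusted p = 1.0), and Gfi1 73.0 ± 9.83 and 87.1 ± 10.5 (-0.28, edgeR adjusted p = 0.898).

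Cell cycle genes had 0 calls in edgeR's test in either list. The median log2 fold change was 0.11 over 26 G1/S and DNA replication genes, 20 of them positive, and -0.15 over 23 G2/M and mitosis genes, 6 of them positive, with 4 at an unadjusted p under 0.05, all lower. In early cells the G2/M median was 0.06. Rrm2, a subunit of ribonucleotide reductase, averaged 489 ± 63.4 CPM in Mettl3KO mice and 377 ± 25.2 in WT mice (SD, n = 3 each, log2 fold change 0.28, edgeR adjusted p = 0.661). Birc5, survivin, averaged 216 ± 25.5 and 213 ± 19.0 CPM (0.06, edgeR adjusted p = 0.991). Ccnb2, a mitotic cyclin, averaged 94.5 ± 17.9 CPM in Mettl3KO mice and 119 ± 15.6 in WT mice (SD, n = 3 each, log2 fold change -0.34, edgeR adjusted p = 0.829). Neither the 7 NADPH oxidase genes (median -0.06), the 9 tested cytokine receptors (-0.04) nor the 35 respiratory chain genes (0.02) held a call.

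The machinery of m6A other than Mettl3 held no call by edgeR (0 readers or erasers at an unadjusted p under 0.05). Of 9 writers 8 were measured and 4 tested, among them Wtap, the adaptor of the writer complex, at 60.4 ± 26.3 CPM in Mettl3KO mice and 85.3 ± 3.88 in WT mice (SD, n = 3 each, log2 fold change -0.24, edgeR adjusted p = 0.930). The 6 tested readers and erasers had a median of -0.12 and none was positive, with Hnrnpa2b1, an RNA-binding protein proposed as a reader, at -0.10 (edgeR adjusted p = 0.960) and Ythdc1, a nuclear reader, at -0.23 (edgeR adjusted p = 0.955). The 6 tested p53 targets had a median of -0.03 and the 20 genes of the integrated stress and unfolded protein responses 0.12, again with 0 calls by edgeR. Of 11 sensors and editors of RNA duplexes, 1 was abundant enough to test, the kinase gene Eif2ak2 (0.69, edgeR adjusted p = 0.876). Heat shock genes (7 tested, median 0.09), immediate early genes (9 tested, median -0.31) and heme and glutathione genes (18 tested, median 0.08) held no call either.

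The genotype effect was then compared directly between Fcnb and early cells of the same mice. Of 9102 genes tested, 12 differed in their effect at an adjusted p under 0.05 (0.132%), 8 with a larger value in Fcnb cells (0.0879%) and 4 with a smaller one (0.0439%), and 377 had an unadjusted p under 0.05. In early cells alone 100 of 10444 genes were called (0.957%), 61 higher (0.584%) and 39 lower (0.373%) in Mettl3KO mice, with 5149 cells behind the sums. The differences included the cell-borne genes above, Cd74, H2-Aa, H2-Ab1 and Car2, and without the 2 outlying cells the count was 5. For H2-K1, H2-Q7, Psmb8, Tfrc, Tfpi and Chil3 no fit that left out 1 library called a difference between the classes.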

How the data were processed

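The 10x libraries of Lin-; c-Kit+ bone marrow cells came from 3 Mettl3KO and 3 WT mice, aimed at 3000 cells and 50000 reads per cell each, per the labels. The authors deposited whole-number UMI counts, not normalized, for 27933 genes in 24693 cells, whose names begin with their library. Bowtie, TopHat and Cell Ranger 2.2 are listed in the submitters' processing notes, as are the mouse build mm10 and the human build GRCh37, without saying what each was used for. The annotation, the counting rule and any removal of doublets were not given in the sources used here. The table of bulk libraries of other populations was not used here.

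Cells over 10% mitochondrial UMIs were removed (297 cells), which left 2946 to 4866 cells and 28546967 to 44159208 UMIs per library. UMIs were summed per mouse over the Fcnb cells, since cells are not replicates, and tested in R 4.3.3 with edgeR 4.0.16 (TMM, filterByExpr, glmQLFit, glmQLFTest, 1 mean per genotype, Benjamini-Hochberg over all genes tested, threshold 0.05); the difference between classes was the class by genotype term of 1 fit over both, with the mouse as a block. P-values measure the spread between these mice. The test was tried on simulated counts with known changes. Levels are counts per 1000000 UMIs of the summed cells (CPM), not divided by transcript length. They are compared between samples, and where genes are ranked or summed by level, the ranking is of counted UMIs only. Shares have exact Clopper-Pearson 95% intervals and two-sided exact permutation tests; intervals and limits from 0 UMIs (3 UMIs) cover counting error only. Scrublet in scanpy 1.11.5 (Python 3.11.15, numpy 2.4.6, scipy 1.17.1) called 250 cells doublets (1.02%), 1 of them an Fcnb cell, and these were kept. DESeq2 1.42.0 was an alternative, and edgeR ran on limma 3.58.1. Coordinates are from GENCODE M21 on GRCm38, 1-based.

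The cells and gene lists were chosen with earlier results of these data known. Genes named between genotypes were Mettl3, the rule and marker genes, called genes without overlap and a mean of at least 20 CPM, and, of each list, its called members or else the most abundant 2; Actb, Lgals1 and the other list members named lie outside this rule and were chosen after their values were seen, as were the promoter motifs and the removal of 2 outlying cells. The replicate numbers did not pair the mice: deviations from the group means correlated at 0.023, 0.027 and -0.045 between mice of the same number.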

Additional observations from a re-analysis of the deposited data

Results flagged for a closer look

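For the 9 genes below, the effect of genotype in Fcnb cells differed from that in early cells by edgeR's test of the difference (adjusted p under 0.05, 3 mice each, mouse as a block); the values are the log2 effect in Fcnb cells minus that in early cells. Car2 differed by -1.40 and Actb by -0.41, with the cells and libraries behind them given above. Dnlz, a chaperone gene of mitochondrial Hsp70, differed by -1.27, with 18.4, 0 and 16.3 CPM in Fcnb cells of Mettl3KO mice and 37.1, 36.4 and 36.4 in those of WT mice. Its Mettl3KO values rested on 14, 0 and 11 UMIs, and the 0 of replicate 2 allows up to 50.9 CPM, above every WT value. The Dnlz difference kept its sign but lost its call in 8 of 12 alternatives. Of these, 5 were fits that left out 1 library, and the removal of the 2 outlying cells was another (edgeR adjusted p = 0.0509). Mt1, a metallothionein that binds zinc, differed by -0.31, with 1108, 1137 and 1180 CPM in Mettl3KO mice and 1134, 950 and 1032 in WT mice, an effect of 0.12 in Fcnb cells beside 0.50 in early cells (edgeR adjusted p = 0.0110). It lost its call in 9 of 12 alternatives, including all 6 fits that left out 1 library and the removal of the 2 cells (edgeR adjusted p = 0.0901). The Car2 difference was lost in 4 of 12, among them the removal of the 2 cells (-0.58, edgeR adjusted p = 1.0), and the Actb difference in 7 of 12.

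For the others the UMIs stood in few cells. Cd74 differed by 4.42, H2-Aa by 3.86 and H2-Ab1 by 2.24, and 1 cell of Mettl3KO replicate 1 held 202 of 205 Cd74 UMIs and 71 of 71 H2-Aa UMIs of the Fcnb cells of its library. Wfdc17 differed by 3.20, with 23 of 27 UMIs in 1 cell of the same library, and Dqx1 by 3.14, with 24 UMIs in 2 cells of Mettl3KO replicate 3. Camp (1.38) and Ngp (1.32) also passed, but both genes chose the cells and are not read as results. Lgals1 passed at 0.45 and lost its call in 7 of 12 alternatives.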

How the results depend on the processing

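The share difference was -0.83 to -2.26 points over the fits that left out 1 mouse and kept its sign under all alternatives run. The 12 calls within Fcnb cells became 27 with no filter on low counts, 0 with DESeq2 (38 at an unadjusted p under 0.05), 8 with Fcnb at least 5 per 10000 (4 of them shared with the 12), 0 by edgeR with Fcnb at least 20 per 10000 (107), 0 by edgeR with cells thinned to 3000 UMIs (190), and 1 to 17 when 1 library was left out; 12 were called with RLE factors and 12 with library totals. The count of differences between classes was 12, 3 to 16 when 1 library was left out, and 5 without the 2 outlying cells. With the replicate block, although the numbers did not pair the mice, 4 genes were called and the share had an exact permutation p of 0.5. Fewer cells and UMIs entered the fit with Fcnb at least 20. In the thinned fit 658 cells met the rule in place of 525, each with 3000 UMIs. The cause of these changes was not tested. In the difference between classes, leaving out 1 library gave -0.55 (without Mettl3KO replicate 1) to 5.61 for Cd74, -6.39 (without Mettl3KO replicate 1) to 4.07 for Wfdc17, -6.10 (without Mettl3KO replicate 3) to 5.77 for Dqx1 and -0.03 (without WT replicate 3) to 2.26 for Ngp. Without the 2 cells Cd74 was -0.26, H2-Aa -0.38 and H2-Ab1 -0.19, and without Mettl3KO replicate 2 and WT replicate 3 Ngp was -0.25. The 6 cells of Mettl3KO replicate 2 limit what any gene under about 1 UMI in 58920 can show there, and the 5060 genes tested are those abundant enough for these sums.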
